A study of Homo sapiens with 2 samples.

Results

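The genes examined were 10 feedback genes of the ERK pathway: the phosphatase genes DUSP4, DUSP5 and DUSP6, the Sprouty genes SPRY1, SPRY2 and SPRY4, the Sprouty-related genes SPRED1 and SPRED2, and the ETS-factor genes ETV4 and ETV5. They were taken by name, as members of these families, with earlier results of these data known. All 10 were found in the count table of 57736 genes. RNA was compared between parental A1847 cells, a human epithelial ovarian cancer line that is wild type for CARM1 and expresses it at a high level, and CARM1 KO A1847 cells. CARM1 is an arginine methyltransferase that methylates histone H3 and chromatin regulators and acts as a transcriptional coactivator. The CARM1 KO cells were 1 clone, made by CRISPR with the vector pLentiCRISPR v2 carrying a guide RNA to CARM1, and both cultures grew in RPMI medium with fetal bovine serum. The sources do not say whether the parental cells carried an empty vector. Each group was 1 library, so no difference here has a replicate check, no test between groups could be made, and what CARM1 loss does cannot be told apart from what set this clone apart.

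ERK is the last kinase of the cascade that runs from growth factor receptors through RAS, RAF and MEK to the nucleus. Active ERK turns on genes whose products then hold the pathway back. DUSP6 and its relative DUSP4 are among the dual-specificity phosphatases, which take the activating phosphates off ERK in the cytoplasm (DUSP6) or in the nucleus (DUSP4, DUSP5). Sprouty and SPRED proteins act at the membrane: Sprouty proteins hold back signalling between the receptor and RAF, and SPRED proteins bring the RAS inactivator NF1 to RAS. ETV4 and ETV5 are transcription factors that carry the signal onward to target genes, and the repressor Capicua, which ERK inactivates, holds several of these genes silent. Because their RNA follows the activity of ERK in many cell types, the levels of DUSP6, SPRY4 and ETV4 are widely used as readouts of the pathway.

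The parental library held 30741953 reads assigned to genes and the CARM1 KO library 32300391. CARM1 itself had 975 reads in the parental library and 380 in the CARM1 KO library, a level 2.63-fold lower (95% interval 2.33 to 2.97). These reads cover the whole gene, so they do not show whether the guide's target site was edited. The paper examined CARM1 protein in both kinds of cells by immunoblot and describes the clone as a knockout. Protein was not part of the counts read here. Of 8 ovarian epithelial cancer markers, 6 reached a summed count of 10 across the libraries, and 5 of these rose past 3-fold in the CARM1 KO library. Of all genes with such a count, 12.8% rose past 3-fold. Reads summed over the 8 went from 43742 to 150298, while WT1 had 8 reads and then 1, and MUC16 had 0 and then 1. The 4 fibroblast markers summed to 218 reads in the parental library and 541 in the CARM1 KO library, with COL1A1 going from 131 reads to 537, DCN from 24 to 0, LUM from 61 to 1 and FAP from 2 to 3. Of the leukocyte markers, CD68 had 400 and then 1644 reads, PTPRC 6 and 0 and CD3E none in either library, and the endothelial markers found in the table had 1 and 2 reads in all. The part of these marker differences in the values below was not tested. In such bulk RNA, fewer cells that express a gene and less RNA per cell cannot be told apart.

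The fold differences below are ratios of reads after scaling both libraries by TMM, a method that sets the bulk of genes to no change. Each carries an exact 95% binomial interval, which covers counting error only and not the spread between cultures. A gene was called when its scaled level differed by more than 3-fold, among the 18563 genes whose reads summed to 10 or more over both libraries. Across those genes 12.8% were called higher in the CARM1 KO library and 11.7% lower, so calls were common in this comparison. All 10 feedback genes passed the read minimum. The 4 called genes, DUSP6, SPRY1, SPRY2 and SPRY4, were all lower in the CARM1 KO library, and 0 of 10 were called higher. With a difference above 2-fold, 5 of 10 were lower, beside 19.1% of all genes, and 2 of 10 were higher, beside 19.6%. Their median log2 fold change was -0.94, against -0.03 for all genes tested.

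**Figure D1:**
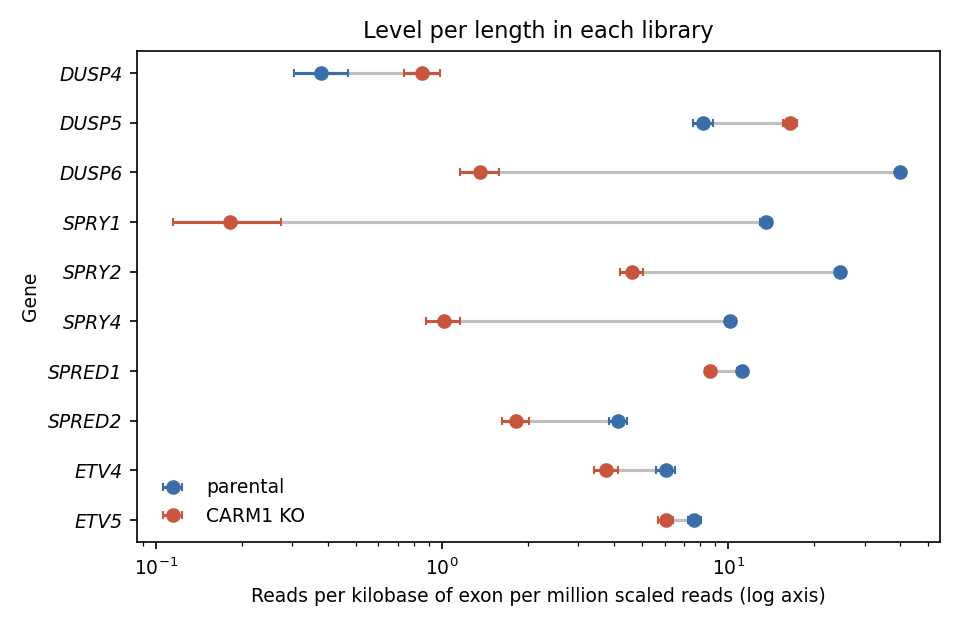
Level of each of the 10 feedback genes in the parental and the CARM1 KO library, in reads scaled for exon length and library size (RPKM) on a log axis, with bars for the exact 95% Poisson interval of the read count. DUSP6 and the Sprouty genes are the members whose points lie farthest apart, and DUSP4 and DUSP5 are the members with the higher point in the CARM1 KO library.

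Of the 3 phosphatases, DUSP6 fell and the other two had higher levels in the CARM1 KO library. DUSP6, which is specific for ERK and works in the cytoplasm, had 4780 reads in the parental library and 167 in the CARM1 KO library. Its level fell 29.3-fold (95% interval 25.1 to 34.4), a log2 fold change of -4.87. Only 296 of the genes tested, 1.59%, had a log2 fold change as low or lower. DUSP5, a nuclear phosphatase that also holds ERK in the nucleus, had 646 reads and then 1330, a level 2.01-fold higher (1.83 to 2.21) and short of the 3-fold threshold. DUSP4, another nuclear phosphatase of the group, had 86 reads and then 198, a level 2.25-fold higher (1.74 to 2.93). It was the feedback gene with the fewest reads in the parental library.

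The balance among these 3 phosphatase genes therefore turned over between the libraries. In RPKM, reads scaled for exon length and library size, DUSP6 stood at 39.8 in the parental library and 1.36 in the CARM1 KO library, while DUSP5 stood at 8.18 and 16.5. DUSP6 made up 82.3% of the summed RPKM of the 3 genes in parental cells and 7.27% in CARM1 KO cells. The share of DUSP5 was 16.9% in parental cells and 88.2% in CARM1 KO cells. In read counts, DUSP6 stood at 7.40 reads for each DUSP5 read in the parental library and 0.126 in the CARM1 KO library. The summed level of the 3 genes was 48.3 RPKM and 18.7 RPKM, 2.59-fold lower in CARM1 KO cells. This sum leaves out the other MAP kinase phosphatases described below. Among those, DUSP1 stood above DUSP5 in both libraries, at 15.7 RPKM in parental cells and 47.4 RPKM in CARM1 KO cells.

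All 3 Sprouty genes of the feedback list fell past the threshold, by different amounts. A further Sprouty gene, SPRY3, was placed with the other brakes described below. It had 29 reads and then 44, a level 1.48-fold higher (95% interval 0.907 to 2.46). SPRY1 had 1670 reads in the parental library and 23 in the CARM1 KO library, a fall of 74.3-fold (95% interval 49.4 to 118). It was the lowest of the 10 genes by log2 fold change, at -6.22, and 144 of the genes tested, 0.776%, were as low or lower. SPRY4 had 2076 reads and then 212, a fall of 10.0-fold (8.70 to 11.6). SPRY2 had 2456 reads and then 471, a fall of 5.34-fold (4.84 to 5.90). The 3 intervals do not overlap, so by counting error alone SPRY1 fell more than SPRY4, and SPRY4 more than SPRY2. As low or lower than SPRY4 were 3.97% of the genes tested, and 6.67% were as low or lower than SPRY2.

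SPRY2 thus made up most of what Sprouty RNA was left. The summed RPKM of the 3 genes was 48.2 in parental cells and 5.79 in CARM1 KO cells, 8.33-fold lower. SPRY2 held 50.9% of that sum in the parental library and 79.4% in the CARM1 KO library, while SPRY1 held 28.1% and then 3.14%. The share of SPRY4 moved less, from 21.1% to 17.5%. Sprouty proteins pair with one another, which was not measured here. In parental cells SPRY1, SPRY2 and SPRY4 stood at 13.5, 24.5 and 10.2 RPKM. In CARM1 KO cells they stood at 0.182, 4.60 and 1.01 RPKM.

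**Figure D2:**
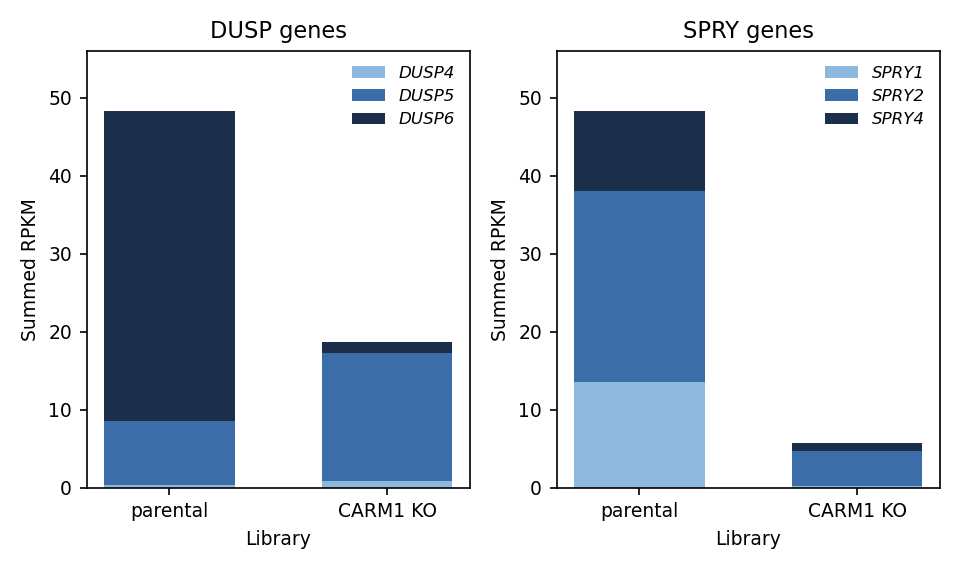
Summed level of DUSP4, DUSP5 and DUSP6 (left) and of SPRY1, SPRY2 and SPRY4 (right) in each library, in RPKM, with each bar starting at 0 and divided by gene. Other phosphatase and Sprouty genes are not in these sums. The phosphatase and Sprouty bars are of like height in parental cells (48.3 and 48.2 RPKM) and stand at 18.7 and 5.79 RPKM in CARM1 KO cells, where DUSP5 and SPRY2 fill most of them. The like height rests on the merged exon length. By the longest transcript, parental SPRY1, SPRY2 and SPRY4 stand at 20.6, 29.1 and 12.5 RPKM. DUSP6, DUSP5 and DUSP4 then stand at 42.3, 8.37 and 0.497 RPKM.

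The promoters of the 4 called genes are shown because these are the regulatory sequences of the genes past the threshold. RefSeq start sites on GRCh38.p14 were matched for 6 of the 10 genes, in 10 windows that each run from 250 bases before the start to 50 after it. For SPRY1 and SPRY2, which have several starts, the window with the most CpG dinucleotides is given. The sequences are in the direction of transcription, 5′ to 3′, and those of DUSP6, SPRY2 and SPRY4 lie on the minus strand and that of SPRY1 on the plus strand. Capitals mark a Capicua octamer (DUSP6) or the ETS-site letters CCGGAA (SPRY1 and SPRY2).
DUSP6 promoter, chr12:89352452-89352751: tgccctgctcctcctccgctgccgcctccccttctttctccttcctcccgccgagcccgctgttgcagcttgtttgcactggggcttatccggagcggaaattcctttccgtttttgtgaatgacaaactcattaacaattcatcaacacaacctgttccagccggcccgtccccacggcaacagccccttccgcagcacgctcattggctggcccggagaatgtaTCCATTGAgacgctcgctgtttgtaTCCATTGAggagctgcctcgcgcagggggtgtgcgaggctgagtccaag
SPRY1 promoter, chr4:123398136-123398435: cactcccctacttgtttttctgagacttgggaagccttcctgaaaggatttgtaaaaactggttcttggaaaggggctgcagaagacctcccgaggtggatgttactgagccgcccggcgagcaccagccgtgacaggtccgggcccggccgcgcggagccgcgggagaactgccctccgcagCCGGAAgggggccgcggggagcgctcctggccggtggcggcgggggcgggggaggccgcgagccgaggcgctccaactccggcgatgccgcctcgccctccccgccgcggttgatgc
SPRY2 promoter, chr13:80341077-80341376: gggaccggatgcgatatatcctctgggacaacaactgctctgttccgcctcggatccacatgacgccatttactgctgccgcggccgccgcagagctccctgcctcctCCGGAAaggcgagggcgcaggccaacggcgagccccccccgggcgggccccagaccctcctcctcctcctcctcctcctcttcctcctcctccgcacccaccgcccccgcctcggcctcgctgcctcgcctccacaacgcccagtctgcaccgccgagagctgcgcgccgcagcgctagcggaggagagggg
SPRY4 promoter, chr5:142324198-142324497: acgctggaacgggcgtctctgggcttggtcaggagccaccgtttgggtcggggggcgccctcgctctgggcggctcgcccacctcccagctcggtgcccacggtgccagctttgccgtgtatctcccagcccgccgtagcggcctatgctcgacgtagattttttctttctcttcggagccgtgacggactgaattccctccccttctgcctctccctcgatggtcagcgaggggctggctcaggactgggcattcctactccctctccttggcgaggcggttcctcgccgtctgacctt

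The DUSP6 window held the Capicua octamer TCAATGGA at 2 places, both on the strand opposite to transcription, where the printed strand reads TCCATTGA. The first starts 24 bases before the start site and the second at base 2 of the transcript. The letters searched for Capicua were TCAATGAA, TCAATGGA, TGAATGAA and TGAATGGA, on both strands, and 3.77% of all 35116 promoter windows held at least 1 and 0.327% at least 2. For ETS factors only the letters CCGGAA were searched. They were found once in the SPRY1 window, 67 bases before the start, and once in the SPRY2 window, 142 bases before it. Of all windows, 17.2% held at least 1. Shorter GGAA stretches, which the DUSP6 and SPRY4 windows also hold, were not counted. The SPRY4 window held no Capicua octamer and no CCGGAA. It also lacked the CRE TGACGTCA (1.85% of all windows) and the AP-1 site TGACTCA (4.95%). CpG dinucleotides numbered 19 in the DUSP6 window and 26 in that of SPRY4, with a median of 14 over all windows. The SPRY1 and SPRY2 windows were chosen for their CpG counts of 32 and 30, and the windows of these genes that are not printed held 12 (SPRY1) and 15 and 6 (SPRY2). These matches are descriptions of letters, and binding was not measured.

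The SPRED genes differed less than the Sprouty genes to which they are related. SPRED1, which brings NF1 to RAS at the membrane, had 2704 reads in the parental library and 2143 in the CARM1 KO library, a level 1.29-fold lower (95% interval 1.22 to 1.37). SPRED2, which acts in the same way, had 707 reads and then 318, a level 2.28-fold lower (1.99 to 2.61). Neither was past the threshold, and 36% of the genes tested were as low or lower than SPRED1 and 16.1% as low or lower than SPRED2. The family's sum was 15.3 RPKM in parental cells and 10.5 RPKM in CARM1 KO cells, 1.46-fold lower. Reads of SPRED1 stood at 1.62 for each SPRY1 read in the parental library and at 93.2 in the CARM1 KO library.

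Neither ETV gene was called. ETV4 had 662 reads in the parental library and 420 in the CARM1 KO library, a level 1.61-fold lower (95% interval 1.43 to 1.83). ETV5 had 1370 reads and then 1116, a level 1.26-fold lower (1.16 to 1.36). Among all genes tested, 25.8% had a log2 fold change as low or lower than ETV4 and 37.5% as low or lower than ETV5. The summed level of the pair was 13.7 RPKM and 9.81 RPKM, 1.39-fold lower in CARM1 KO cells. The readouts of ERK named above thus lay far apart, with DUSP6 29.3-fold, SPRY4 10.0-fold and ETV4 1.61-fold lower.

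**Figure D3:**
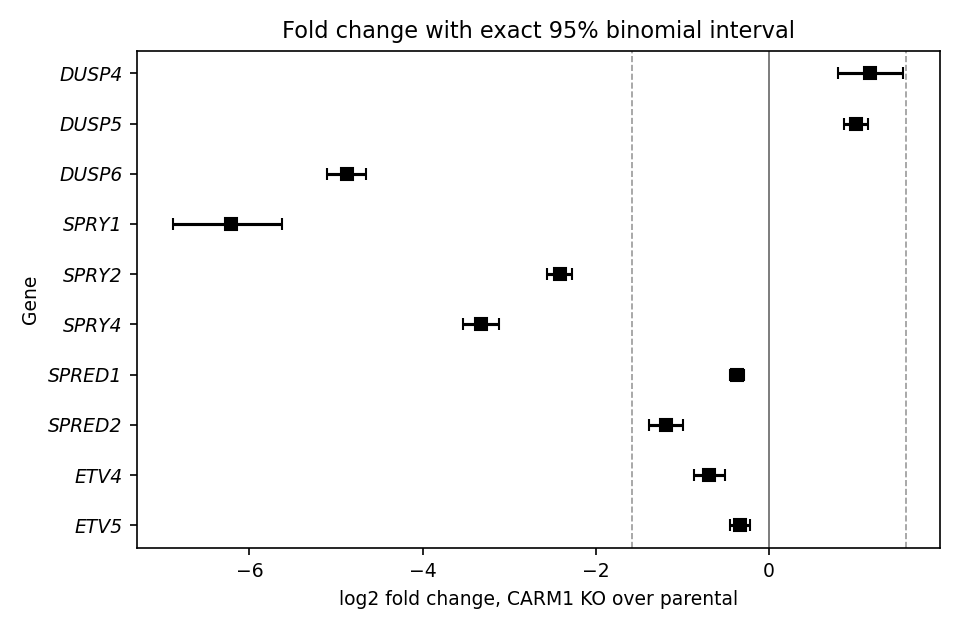
Log2 fold change of each feedback gene, CARM1 KO over parental, with the exact 95% binomial interval of the read counts and dashed lines at 3-fold. SPRY1, DUSP6, SPRY4 and SPRY2 lie below the lower line at -6.22, -4.87, -3.33 and -2.42, and the other six lie between the lines.

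Ordered by level per length, the genes changed places between the libraries. In parental cells the order by RPKM was DUSP6 (39.8), SPRY2 (24.5), SPRY1 (13.5), SPRED1 (11.2), SPRY4 (10.2), DUSP5 (8.18), ETV5 (7.62), ETV4 (6.05), SPRED2 (4.12) and DUSP4 (0.380). The counting intervals of DUSP5 and ETV5 overlapped, so that pair has no order. In CARM1 KO cells the order was DUSP5 (16.5), SPRED1 (8.67), ETV5 (6.06), SPRY2 (4.60), ETV4 (3.75), SPRED2 (1.81), DUSP6 (1.36), SPRY4 (1.01), DUSP4 (0.854) and SPRY1 (0.182). There the intervals of DUSP6 and SPRY4 overlapped, as did those of SPRY4 and DUSP4. By point value, DUSP6 went from rank 1 to rank 7, SPRY1 from rank 3 to rank 10, and DUSP5 from rank 6 to rank 1. With the length of the longest transcript in place of merged exons, 5 of the 10 genes kept their rank in parental cells and 8 in CARM1 KO cells. DUSP6 and SPRY1 kept the ranks given here, while DUSP5 stood at rank 8 in parental cells.

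**Figure D4:**
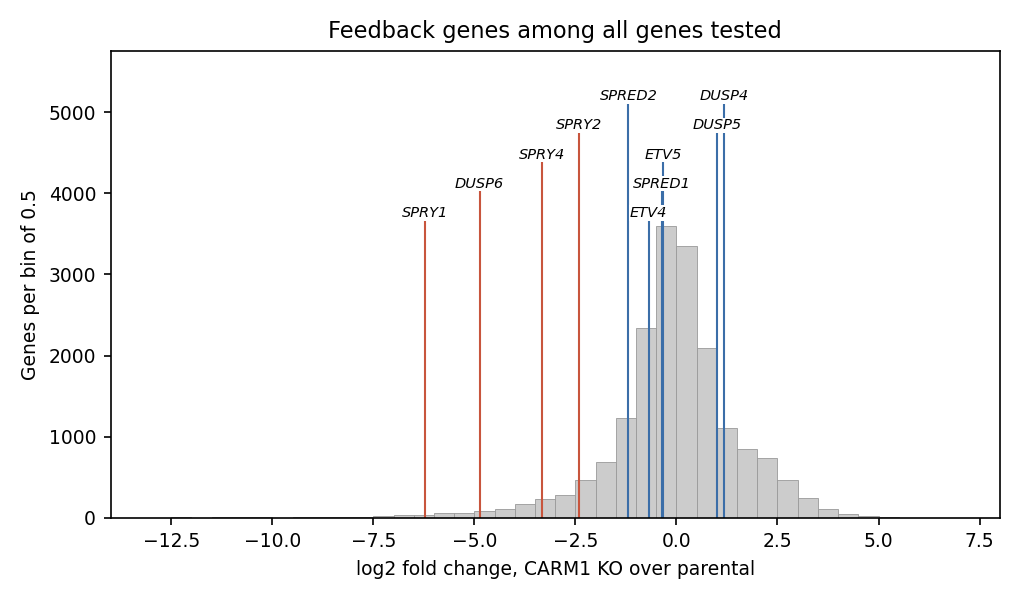
Histogram of the log2 fold change, CARM1 KO over parental, of the 18563 genes tested, in bins of 0.5, with a line at each feedback gene, red where it fell past 3-fold and blue elsewhere. The red lines of SPRY1, DUSP6, SPRY4 and SPRY2 stand in the left tail, and the blue lines lie within the body of the distribution.

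On GRCh37, the build of the count table, the feedback genes lie on 10 different chromosomes. DUSP6 is at chr12:89741012-89746278 on the minus strand, SPRY1 at chr4:124317950-124324915 on the plus strand, SPRY2 at chr13:80910111-80915261 on the minus strand and SPRY4 at chr5:141689992-141706020 on the minus strand. DUSP5 is at chr10:112257665-112271291 (plus), SPRED1 at chr15:38545037-38649450 (plus), SPRED2 at chr2:65537985-65659771 (minus), ETV4 at chr17:41605212-41656988 (minus) and ETV5 at chr3:185764103-185828107 (minus). DUSP4 is at chr8:29190581-29208201 (minus). Some of these genes share exon bases with a neighbour, and whether the counting used strand is not given in the sources used here. DUSP6 shares 1105 exon bases with an antisense long noncoding RNA that has no row in the table, ETV4 shares 68 with DHX8 on the other strand, and ETV5 shares 164 with DGKG, which had 1 and 19 reads. SPRY4-AS1, antisense to SPRY4 with no shared exon base, had 61 reads in the parental library and 8 in the CARM1 KO library. The pseudogene DUSP5P1 had 15 and 10 reads, few beside those of DUSP5.

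Other MAP kinase phosphatases that passed the threshold were higher in CARM1 KO cells. Of 7 such genes, 3 rose past the threshold in the CARM1 KO library and 0 fell, while 12.8% of all genes tested were called higher and 11.7% lower. In log2 fold change 4 of the 7 lay above 0 and 3 below. The median of 0.97 was the value of DUSP8, which had 7 reads and then 14. DUSP16 had 884 reads and then 317, a level 2.86-fold lower (95% interval 2.51 to 3.26) and just short of the threshold. DUSP10, which acts mainly on the stress kinases p38 and JNK, had 15 reads and then 127, a rise of 8.27-fold (95% interval 4.83 to 15.2). DUSP9 had 39 reads and then 131, a rise of 3.28-fold (2.28 to 4.82). DUSP1, the immediate early nuclear phosphatase, had 987 reads and then 3045, a rise of 3.01-fold (2.80 to 3.24) that lies at the threshold: its log2 fold change was 1.55 by library size alone, where 3-fold is 1.585. Among 15 other brakes on RAS and receptor signalling 1 was called, RASAL1, a RAS inactivator with 3 reads and then 24 (7.81-fold higher, 2.37 to 40.5), and the median was 0.09.

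The kinases and adaptors that lie upstream of the feedback genes were not called. Of the 19 genes of the ERK cascade, which run from adaptors such as GRB2 through RAS to the kinases, 0 were called in either direction. Across all genes tested, 12.8% were called higher and 11.7% lower. Their log2 fold changes ran from -1.33 to 0.60 with a median of -0.02. The lowest was SHC1, an adaptor of activated receptors, with 5621 reads and then 2290 (2.51-fold lower, 2.39 to 2.64). These are RNA levels, and phosphorylated ERK was not measured in these files.

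Of 15 other genes that ERK is known to induce, 1 rose and 2 fell past the threshold, with a median log2 fold change of 0.72. These counts are near what the shares of all genes called, 12.8% higher and 11.7% lower, would give for a list of this length. EGR1, an immediate early transcription factor, had 152 reads and then 17, a fall of 9.15-fold (95% interval 5.53 to 16.1). EGR3, of the same family, had 11 reads and then 0, at least 3.75-fold lower against a floor of 3 reads in the CARM1 KO library. The lower bound of its exact 95% interval, which also counts the error of the 11 reads, was 2.57-fold and so short of the threshold. EGR2, also of that family, went the other way, with 19 reads and then 52 (2.67-fold higher, 1.55 to 4.79), short of the threshold. EPHA4, an ephrin receptor, had 41 reads and then 357, a rise of 8.50-fold (6.14 to 12.1). FOSL1, whose protein is stabilised by ERK, had 843 reads and then 1529, and CCND1, the gene of cyclin D1, had 13219 and then 19587, neither past the threshold. FOS had 116 reads and then 41 (2.90-fold lower, 2.01 to 4.24) and MYC had 2548 and then 1839, also short of the threshold. In log2 fold change 9 of the 15 genes lay above 0 and 6 below.

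Among 13 other ETS factors and parts of the Capicua repressor, 2 rose past the threshold and 0 fell, with a median log2 fold change of 0.14. Such counts are near what the shares of all genes called, 12.8% higher and 11.7% lower, would give for 13 genes. ATXN1, which binds Capicua, had 75 reads and then 649, a rise of 8.45-fold (95% interval 6.65 to 10.9). ETS1, a transcription factor that ERK phosphorylates, had 1796 reads and then 6333, a rise of 3.44-fold (3.27 to 3.63). The Capicua gene CIC had 342 reads and then 200, and ETV1, the closest relative of ETV4 and ETV5, had 492 and then 701, neither past the threshold.

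Receptors and ligands upstream of ERK held the widest differences of the lists examined. Of 23 genes 22 passed the read minimum, and 8 of them rose and 2 fell past the threshold, with a median log2 fold change of 1.13. Beside these counts, 12.8% of all genes tested were called higher and 11.7% lower. PDGFRA, a receptor for platelet-derived growth factors, had 14326 reads in the parental library and 2 in the CARM1 KO library, 7334-fold lower with a counting interval of 2030 to 60564. HGF, the ligand of the receptor MET, had 25283 reads and then 4, 6472-fold lower with an interval of 2527 to 23754. ERBB3, a receptor of neuregulins, rose from 196 reads to 3085 (15.4-fold, 13.3 to 17.9), and its ligand NRG1 from 180 reads to 1262 (6.85-fold, 5.85 to 8.05). Which of these levels moved with the feedback genes cannot be read from 2 libraries.

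**Figure D5:**
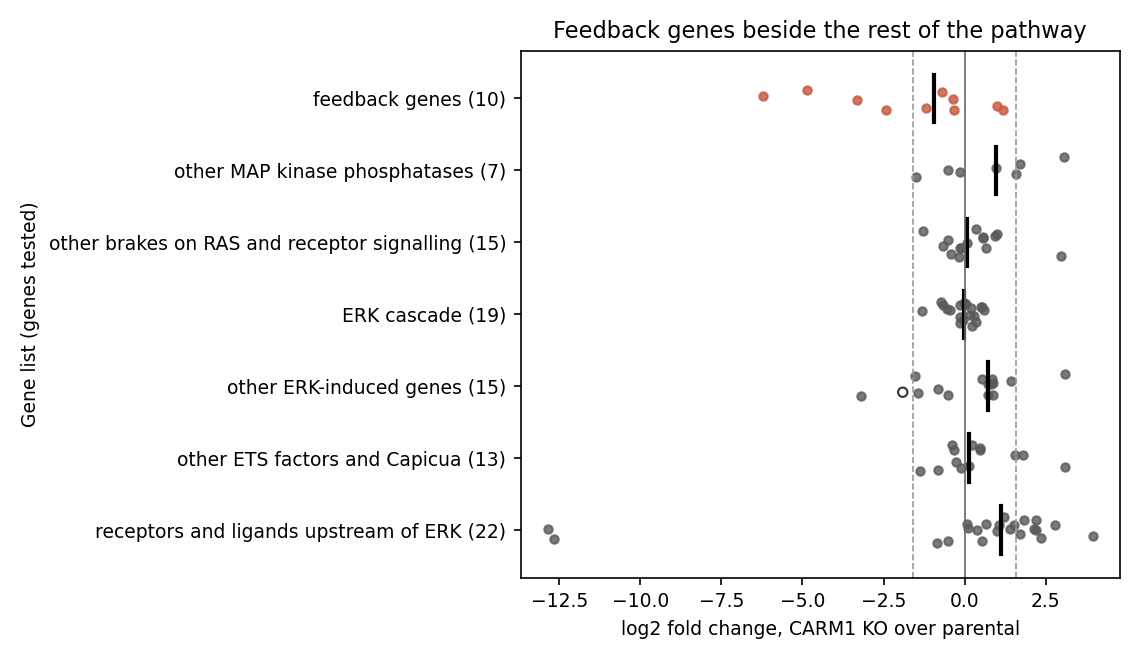
Log2 fold change, CARM1 KO over parental, of each gene tested in the feedback list and in the other ERK lists, 1 point a gene (feedback genes in red), with black bars at the list medians, dashed lines at 3-fold and an open circle for EGR3, drawn at its bound. The points of the ERK cascade lie between the lines, from -1.33 to 0.60, while 4 feedback genes lie below the lower line and PDGFRA and HGF lie far below it among the receptors and ligands.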

How the data were processed

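RNA from parental and CARM1 KO A1847 cells (1 library each) was sequenced as paired-end reads from libraries made with the ScriptSeq Complete Gold kit. The authors aligned the reads to hg19 (GRCh37) with bowtie2 and deposited estimated read counts per Ensembl gene from RSEM as whole numbers, unscaled. The submitters' processing notes give RSEM 1.2.3 and also name edgeR; the paper's methods give another RSEM version. The counts are estimates, so reads shared by similar genes were divided among them. No column of the table went unused (0 columns), and it held no fold changes or p-values of the authors.

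Gene identifiers were joined to GENCODE for GRCh37. Of 57736 genes, 55501 matched and 2235 did not; all 10 feedback genes matched. Libraries were scaled by TMM (edgeR 4.0.16, R 4.3.3). The call above 3-fold follows the fold threshold of the study's methods, whose false discovery rate was not used because 1 library per group leaves no spread between replicates. Intervals are exact Clopper-Pearson (fold) and exact Poisson (RPKM) at 95%, from scipy 1.17.1. RPKM used the length of all annotated exons merged and the TMM-scaled library size. The planned comparisons had no test, and the calculation of folds and intervals was tested on simulated data.

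The 10 feedback genes and the other lists were chosen with earlier results of these data known. From each other list, up to 4 genes past 3-fold were to be named, or else the gene with the largest difference. FOSL1, CCND1, CIC and ETV1 were added for their roles after their values were seen. DUSP8, DUSP16, SPRY3, FOS, MYC, EGR2, FGFR2 and EREG were also added after their values were seen. Alternatives were total reads, DESeq2 1.42.0 size factors, upper-quartile scaling, TMM on protein-coding genes, read minimums of 1 and 50, thresholds on 2-fold and on the interval's bound, a prior count of 2, and transcript length. Promoter windows came from RefSeq on GRCh38.p14, the gene positions from GRCh37, and no coordinate was converted.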

Additional observations from a re-analysis of the deposited data

How the results depend on the processing

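The 4 feedback genes that fell past 3-fold were 4 under each of the 4 other scalings, both other read minimums, the prior count and the bound of the interval, and 5 with a 2-fold threshold. The median log2 fold change of all 10 feedback genes ran from -0.98 to -0.90. All 120 recomputed single-gene values kept their sign and moved by less than their counting interval, although DUSP1 (lowest log2 fold change 1.55) went below 3-fold and DUSP5 (lowest 0.96) below 2-fold. With a 2-fold threshold, 3631 genes were higher and 3537 lower, with 2 feedback genes higher, 1 other MAP kinase phosphatase lower, 2 other brakes higher and 1 lower, 1 ERK cascade gene lower, 2 other ERK-induced genes higher and 4 lower, and 1 other ETS or Capicua gene lower. With the interval's bound past 3-fold, 1292 genes were higher and 1234 lower, with 1 other phosphatase and 0 other brakes higher and 1 other ERK-induced gene lower. With at least 50 reads, 1219 genes were lower, 0 other brakes were higher and 1 other ERK-induced gene was lower. Receptors and ligands higher numbered 6 in place of 8, both with at least 50 reads and with the interval's bound. These counts follow from the rule itself, which admits more or fewer genes. By the longest transcript, 5 of 10 genes kept their rank in parental cells. No paired analysis was possible because each group had 1 library, and for the same reason no library could be left out. Depth limits the low counts most: SPRY1 had 23 reads in the CARM1 KO library, so its fold is known only to within 49.4 to 118. RASAL1, EGR3, FGFR2, PDGFRA and HGF each had under 5 reads in 1 library.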

Other observations

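The genes next to the feedback genes were read for comparison, taking the 5 nearest protein-coding genes with at least 50 reads on each side. The stretch they covered differed widely, from 905 kb around ETV4 to 5746 kb around SPRY1 and 16817 kb around SPRY2. Of the 10 neighbours of SPRY1, 0 were as low as SPRY1, and their log2 fold changes ran from -0.05 to 2.13 with a median of 0.33. For SPRY4 the neighbours ran from -0.998 to 2.29 with a median of 0.33, and 0 were as low as SPRY4. SPRY2 had 2 neighbours as low as itself among a median of 0.62, and DUSP6 had 1 as low, with a median of -0.66. DUSP4 and DUSP5, the feedback genes with the higher level in CARM1 KO cells, had neighbour medians of -0.60 and -0.23. For ETV4 and ETV5 the neighbour medians were 0.37 and 0.06, and for SPRED1 and SPRED2 they were -0.19 and -0.50. Past 3-fold, 12.8% of all genes tested were higher and 11.7% lower. These shares cover genes of every type with at least 10 reads, so they are not matched to the neighbours. The 10 neighbours of DUSP6 numbered 0 higher and 4 lower, those of DUSP4 0 and 3, and those of DUSP5 1 and 2. Around SPRY1 and SPRY4 there were 2 higher and 0 lower each, and around SPRY2 3 and 2. The counts were 2 and 1 for SPRED1, 0 and 1 for SPRED2, 2 and 2 for ETV4 and 0 and 0 for ETV5. Neighbours share a library and a chromosome region, so these are descriptions with no test.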
